A study of Rattus norvegicus with 6 samples.

Results

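Nox4, Cybb, Cyba, Ncf1, Ncf4 and Rac2 are 6 genes of the NADPH oxidases, enzymes that pass electrons from NADPH across a membrane to oxygen and so make reactive oxygen species. They were chosen by name, as the rows of the expression table whose symbol was 1 of these 6, out of 19616 genes, and each symbol matched 1 row. Nox4 encodes a catalytic subunit that works without the cytosolic proteins, whereas the other 5 encode parts of the phagocyte oxidase, and the question here was how the level of Nox4 compared with that of the phagocyte complex in fibrotic liver. RNA was sequenced from liver of male SD rats after hepatic fibrosis had been induced with carbon tetrachloride (CCl4). The FL group (rats FL2, FL5 and FL12) received CCl4 mixed with olive oil by intraperitoneal injection of 2 mL/kg, given 2 times weekly over 5 weeks. The CL group (rats CL5, CL6 and CL7) received olive oil alone in the same volume. Each rat gave 1 library of bulk liver RNA from which ribosomal RNA had been removed, and the age of the rats is not given in the sources used here.

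NADPH oxidases differ in how they are switched on. In neutrophils and macrophages the membrane pair of Cybb and Cyba stays silent until cytosolic subunits and a GTPase such as Rac2 are brought to it, and the superoxide made then helps to kill microbes. NOX4 is active wherever it is made together with the Cyba protein, releases mainly hydrogen peroxide, and in liver has been described in hepatocytes and in stellate cells, the collagen-making cells of fibrosis.

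Expression is given as FPKM, fragments counted on a gene relative to its transcript length and to the size of the library, so that levels can be compared between genes per length. FL and CL were compared with limma on log2(FPKM + 0.1) over 14864 genes that averaged 0.1 FPKM or more, and a gene was called when its adjusted p was under 0.05 and its fold change at least 2. All fold changes below are on that scale, which understates the change of low genes. By this rule 1381 genes (9.29%) were called higher in FL and 139 genes (0.935%) lower. All FL rats lay above all CL rats in 35.7% of the genes tested and below them in 4.78%. At an unadjusted p under 0.05, 31.5% of the genes tested were higher and 4.04% lower. Genes called higher made up 90.9% of all calls, 82.0% after median scaling of the rats and 66.2% after quantile normalization. Calls were thus mostly upward, by an excess that shrank with scaling. The number called higher was 717 without CL7, 682 without FL5 and 895 without FL12, and the number called lower was 80 without CL6 and 80 without CL7. The median log2 fold change of all genes was 0.29, and it was 0.08 after median scaling and -0.04 after quantile normalization. The typical gene was thus slightly higher in FL before scaling. Summed FPKM was 309425 in CL5, 340467 in CL6, 315259 in CL7, 309226 in FL2, 272350 in FL5 and 272110 in FL12. The number of reads per library is unknown from these values. The smallest steps between low values of the U6 RNA genes put the depth, relative to 1 in CL5, at 0.656 in CL6, 0.84 in CL7, 0.667 in FL2, 0.724 in FL5 and 0.677 in FL12.

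All 6 members passed the filter on low values and all 6 were called, 1 lower in FL (Nox4) and 5 higher (Cybb, Cyba, Ncf1, Ncf4 and Rac2). Of all genes tested 9.29% were called higher and 0.935% lower. None of the 6 overlapped between the groups. Among all genes tested, every FL rat lay above every CL rat in 35.7% and below in 4.78%. Relative to the median of all genes, the log2 fold change was -3.77 for Nox4 and between 0.96 (Ncf4) and 1.75 (Ncf1) for the phagocyte members. The direction of all 6 was the same under each alternative tried, both scalings included. The tissue is bulk liver, so a change in the number of cells of a type and a change in RNA per cell cannot be told apart for any of these genes.

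**Figure D1:**
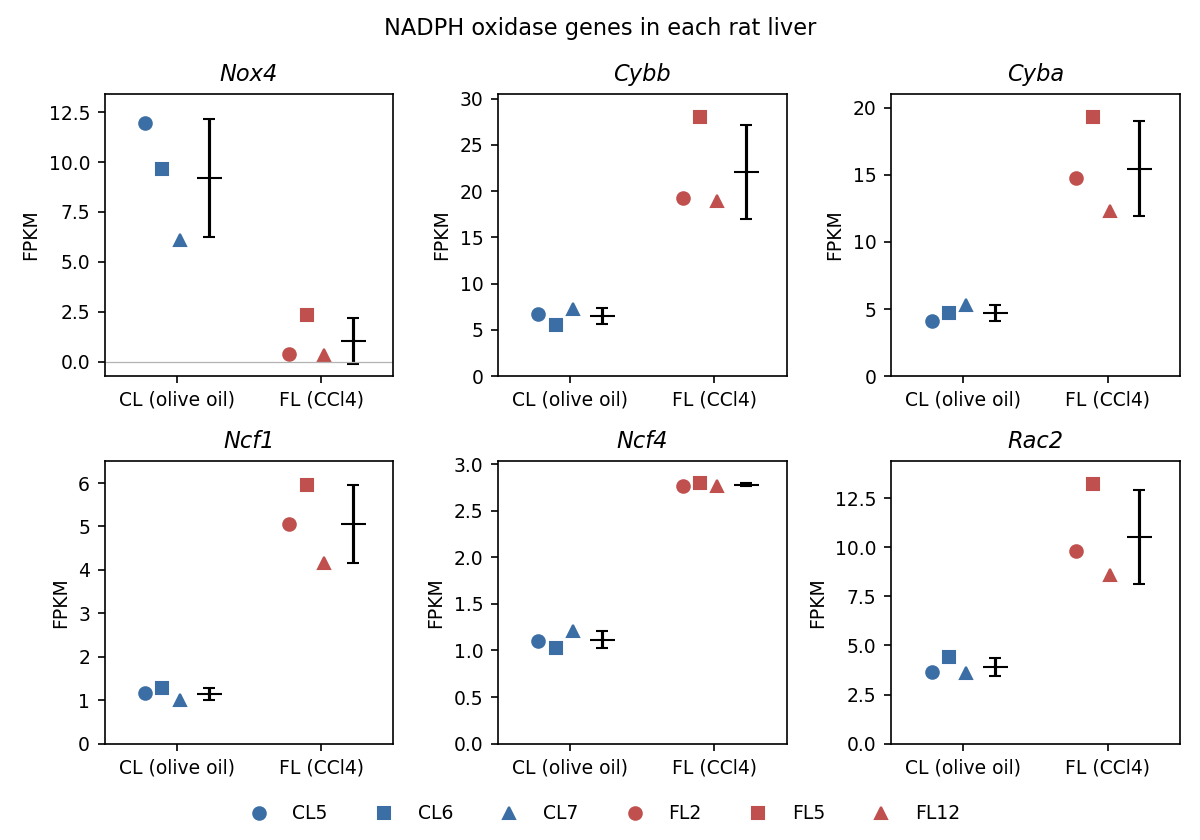
FPKM (vertical axis) of the 6 members in each rat, CL (olive oil) in blue and FL (CCl4) in red, with the group mean and SD of 3 rats as black bars. Nox4 was lower in every FL rat than in any CL rat, with FL5 at 2.34 FPKM above FL2 and FL12, and the other 5 members were higher in every FL rat.

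Nox4 (ENSRNOG00000013925, chromosome 1) was expressed at 11.95 FPKM in CL5, 9.64 in CL6 and 6.08 in CL7, and at 0.40 in FL2, 2.34 in FL5 and 0.33 in FL12. All CL rats were well above all FL rats, CL7 was the lowest of its group, and FL5 held several times the level of FL2 and FL12. The mean was 9.22 ± 2.96 FPKM (SD, n = 3) in CL and 1.02 ± 1.14 (SD, n = 3) in FL. Nox4 was downregulated 11.1-fold in FL, with a log2 fold change of -3.48 (SE 0.62, 95% interval -4.90 to -2.05) and an adjusted p of 0.0103 by limma, lower in 3 of 3 FL rats. From the lowest upward it had rank 22 among the log2 fold changes of all genes tested. FL5 weighed on the size of the fall: without it the log2 fold change was -4.28 (SE 0.30), a 19.4-fold difference. With 1 in place of 0.1 added to each value the log2 fold change was -2.43, a 5.39-fold difference. Adjusted p for Nox4 lay between 0.00411 and 0.0416 over the alternatives tried. Whether strand was used in counting annotated genes such as Nox4 is not given in the sources used here, so reads from transcripts antisense to Nox4 cannot be told apart from its own.

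Cybb (ENSRNOG00000003622, chromosome X) encodes the catalytic subunit of the phagocyte oxidase, the counterpart of NOX4 in that complex. Its level was 6.70 FPKM in CL5, 5.58 in CL6 and 7.31 in CL7, against 19.31 in FL2, 27.98 in FL5 and 18.91 in FL12. Every FL rat was far above every CL rat, and FL5 was the highest. Means were 6.53 ± 0.877 FPKM (SD, n = 3) in CL and 22.1 ± 5.13 (SD, n = 3) in FL. Cybb was upregulated 3.31-fold (log2 fold change 1.73, SE 0.18, limma adjusted p = 0.00237), in the opposite direction to Nox4.

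Because FPKM is per length, the levels of the catalytic genes can be set beside each other within a rat. The ratio of Nox4 to Cybb was 1.78 in CL5, 1.73 in CL6 and 0.832 in CL7, and 0.0207 in FL2, 0.0836 in FL5 and 0.0175 in FL12. Nox4 was thus the more abundant of the pair in CL5 and CL6, Cybb was the more abundant in CL7 and in all FL rats, and the ratios of the groups did not overlap. Nox1, Duox1 and Duox2, the other catalytic genes found in the table, summed to between 0.05 and 0.12 FPKM per rat. Of the summed FPKM of these 5 genes, Nox4 made up 63.9% in CL5, 63.1% in CL6 and 45.0% in CL7, and 2.02% in FL2, 7.69% in FL5 and 1.71% in FL12. In FPKM, the sum itself was 18.7 in CL5, 15.3 in CL6 and 13.5 in CL7, and 19.8 in FL2, 30.4 in FL5 and 19.3 in FL12. FL12 and CL5 were close in this sum and the values are not scaled, so no direction is given for it. Its make-up went from a Nox4 share near or above that of Cybb to a sum made up almost wholly of Cybb. These ratios and shares are descriptions and were not tested.

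**Figure D2:**
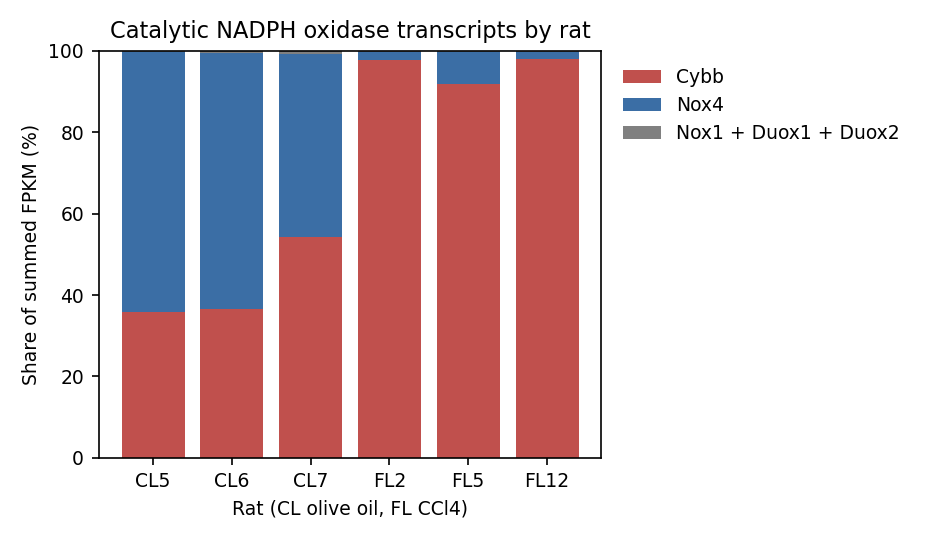
Share of summed catalytic NADPH oxidase FPKM (vertical axis, percent) in each rat, stacked as Cybb in red, Nox4 in blue and Nox1, Duox1 and Duox2 together in grey. Nox4 held 45.0% to 63.9% in the CL rats and 1.71% to 7.69% in the FL rats.

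Cyba (ENSRNOG00000013014, chromosome 19) encodes p22phox, the membrane partner that both NOX4 and the Cybb protein need. It stood at 4.11 FPKM in CL5, 4.70 in CL6 and 5.28 in CL7, and at 14.74 in FL2, 19.30 in FL5 and 12.31 in FL12. The groups were well separated and FL5 was again the highest rat. Cyba went from 4.70 ± 0.585 FPKM in CL to 15.5 ± 3.55 in FL (SD, n = 3 each), a 3.20-fold upregulation (log2 fold change 1.68, SE 0.18, limma adjusted p = 0.00265). The shared partner therefore moved with Cybb and against Nox4. The ratio of Cybb to Cyba was 1.63, 1.19 and 1.38 in CL5, CL6 and CL7 and 1.31, 1.45 and 1.54 in FL2, FL5 and FL12, and overlapped between the groups. The ratio of Nox4 to Cyba was 2.91, 2.05 and 1.15 in the same CL rats and 0.0271, 0.121 and 0.0268 in the same FL rats, without overlap. Cyba per summed FPKM of Nox4 and Cybb was 0.220, 0.309 and 0.394 in CL5, CL6 and CL7 and 0.748, 0.637 and 0.640 in FL2, FL5 and FL12, so that each FL rat held more Cyba per catalytic transcript than any CL rat.

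Ncf1 (ENSRNOG00000001480, chromosome 12) encodes p47phox, the organizer that on phosphorylation carries the cytosolic subunits to the membrane. Ncf1 was at 1.16 FPKM in CL5, 1.28 in CL6 and 1.01 in CL7, and at 5.05 in FL2, 5.95 in FL5 and 4.16 in FL12. The CL rats were tightly grouped and all FL rats were above them. The mean was 1.15 ± 0.135 FPKM in CL and 5.05 ± 0.895 in FL (SD, n = 3 each), and Ncf1 rose 4.10-fold (log2 fold change 2.03, SE 0.18, limma adjusted p = 0.00165). This was the largest rise of the 5 phagocyte members, but with a pseudocount of 1 the log2 fold change of Ncf1 (1.48) was below those of Cybb and Cyba (1.51 for Cyba). Whether reads of Ncf1 could also come from near-identical copies was not tested.

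Ncf4 (ENSRNOG00000006940, chromosome 7) encodes p40phox, a cytosolic subunit that binds a phosphoinositide of the phagosome membrane. Its values were 1.10 FPKM in CL5, 1.03 in CL6 and 1.21 in CL7, and 2.77 in FL2, 2.80 in FL5 and 2.77 in FL12. The FL rats were almost equal to each other and above all CL rats. Ncf4 rose 2.38-fold (log2 fold change 1.25, SE 0.16, limma adjusted p = 0.00414), from 1.11 ± 0.0907 to 2.78 ± 0.0173 FPKM (SD, n = 3 each). This was the smallest rise of the phagocyte members, except that without FL5 the log2 fold change was 1.24 for Ncf4 and 1.22 for Rac2. It fell under the 2-fold limit with a pseudocount of 1 (log2 fold change 0.84) and with quantile normalization (0.79), and over all alternatives its adjusted p lay between 0.00309 and 0.0259.

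Rac2 (ENSRNOG00000007350, chromosome 7) encodes a small GTPase of blood cells that, loaded with GTP, can complete the active complex. Rac2 was at 3.66 FPKM in CL5, 4.42 in CL6 and 3.62 in CL7, and at 9.80 in FL2, 13.21 in FL5 and 8.57 in FL12. All FL rats were above all CL rats, with FL5 highest. It rose 2.62-fold (log2 fold change 1.39, SE 0.18, limma adjusted p = 0.00437), from 3.90 ± 0.451 to 10.5 ± 2.40 FPKM (SD, n = 3 each). Rac1, the form found in nearly all cells, was at 21.9 ± 2.67 FPKM in CL and 26.0 ± 4.52 in FL (SD, n = 3 each) with overlapping groups, and was not called (log2 fold change 0.24, limma adjusted p = 0.327). The ratio of Rac2 to Rac1 was 0.152 in CL5, 0.193 in CL6 and 0.191 in CL7, and 0.467 in FL2, 0.485 in FL5 and 0.288 in FL12. Rac1 was the more abundant in every rat, and Rac2 gained on it in every FL rat.

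In CL the order of mean FPKM was Nox4, Cybb, Cyba, Rac2, Ncf1 and Ncf4. The ranges of neighbours in that order overlapped for Nox4 and Cybb, for Cyba and Rac2, and for Ncf1 and Ncf4. Within single CL rats Cyba was above Rac2 in 3 of 3, whereas Nox4 was above Cybb in 2 of 3 and Ncf1 above Ncf4 in 2 of 3. In FL the order was Cybb, Cyba, Rac2, Ncf1, Ncf4 and Nox4, so Nox4 went from the top to the bottom. There the ranges overlapped for Cybb and Cyba and for Cyba and Rac2, but within single FL rats Cybb was above Cyba and Cyba above Rac2 in 3 of 3. Nox4 lay below Ncf4 in every FL rat. The means of the phagocyte genes had the same order in both groups. FL5 was the highest FL rat for all 5 phagocyte members and also for Nox4, and FL12 was the lowest for 4 of the 5 and level with FL2 for Ncf4. On the log2 scale, Nox4 minus the mean of the 5 phagocyte members was 2.12 in CL5, 1.77 in CL6 and 1.08 in CL7, and -4.07 in FL2, -2.10 in FL5 and -4.14 in FL12. The contrast thus changed sign between the groups in every rat, with FL5 the nearest to the CL rats.

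Markers of the cells in which these genes are known were read beside them. Counts of calls in the lists below stand beside 9.29% of all genes called higher and 0.935% called lower. Of 8 pan-leukocyte markers 7 were tested and 7 were called higher, Ptprc, Laptm5, Coro1a, Lcp1, Cd53, Spi1 and Tyrobp. The call of Spi1 was lost without FL5 (adjusted p = 0.0603 by limma, 0.0127 with all rats and 0.00999 to 0.0603 over the alternatives), and Coro1a fell under the 2-fold limit with quantile normalization (log2 fold change 0.94). For Spi1 the log2 fold change was 1.345 without FL5 and 1.52 with all rats. The 8 markers summed to 33.5, 43.3 and 36.7 FPKM in CL5, CL6 and CL7 against 106, 139 and 104 in FL2, FL5 and FL12, and Tyrobp, a signalling adaptor of myeloid cells, was the most abundant. Tyrobp and Spi1 are mainly of myeloid cells, so the list and its sum lean to these. Cd52 was at 0 in 3 rats and at 0.19 FPKM in the other 3. The summed level was thus higher in all FL rats and highest in FL5, the rat in which the phagocyte members were also highest. The part that the number of leukocytes had in the rise of the oxidase genes was not tested.

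On the log2 scale the mean of the 8 pan-leukocyte markers was 1.44 higher in FL than in CL. Relative to that mean in each rat, the difference between FL and CL was 0.29 for Cybb, 0.24 for Cyba, -0.19 for Ncf4 and -0.04 for Rac2, with overlapping groups for each. Ncf1 was the only phagocyte member whose groups did not overlap on this relative scale, with a difference of 0.60. The mean includes Cd52, which was under the filter. Over the 7 tested markers, an alternative chosen after seeing the data, the mean was 1.57 higher in FL and the differences were 0.16 for Cybb, 0.11 for Cyba, 0.47 for Ncf1, -0.32 for Ncf4 and -0.18 for Rac2, again with overlap for each but Ncf1. Without Spi1 and Tyrobp as well, also chosen after seeing the data, the differences over 5 markers were 0.16 for Cybb, 0.11 for Cyba, 0.46 for Ncf1, -0.32 for Ncf4 and -0.18 for Rac2, with overlap for the same members. Nox4 relative to all 8 markers was lower in FL by a difference of -4.91 (-5.05 for the 7 tested and for the 5), and relative to 8 hepatocyte markers by -3.52. The mean of the hepatocyte markers differed by 0.05 between the groups, which overlapped. These relative levels are a description and were not tested.

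Of 10 macrophage markers 10 were tested and 4 were called higher, Cd68, Csf1r, Marco and Lyz2. All 10 markers together summed to 163, 152 and 157 FPKM in CL5, CL6 and CL7 against 349, 342 and 217 in FL2, FL5 and FL12. Clec4f, a receptor of resident Kupffer cells, was the most abundant of the list in each CL rat but in no FL rat. It was at 47.2 ± 3.52 FPKM in CL and 50.1 ± 21.1 in FL (SD, n = 3 each) and was not called (limma adjusted p = 0.974). Lyz2, the lysozyme of myeloid cells, was at 3.23 ± 1.46 FPKM in CL and 27.8 ± 5.57 in FL (SD, n = 3 each), with a log2 fold change of 3.13 (limma adjusted p = 0.00165). Csf1r was not called without FL5 (log2 fold change 0.99), with median scaling (0.91) or with quantile normalization (0.93). Relative to the mean log2 of the macrophage markers, the difference between FL and CL was 0.67 for Cybb, 0.62 for Cyba and 0.98 for Ncf1, without overlap, and 0.19 for Ncf4 and 0.33 for Rac2, with overlap.

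Markers of neutrophils, which also carry the phagocyte oxidase, were at low levels in all 6 rats. Of 10 markers 9 were in the table (Ltf was not matched) and 6 were tested, and 3 were called higher, S100a8, S100a9 and Csf3r. The markers summed to 0.63, 1.16 and 1.28 FPKM in CL5, CL6 and CL7 against 5.68, 2.55 and 5.18 in FL2, FL5 and FL12, with S100a8, a calcium-binding protein of neutrophils and monocytes, the most abundant in each rat but CL5. The granule genes Mpo, Elane and Camp were at or near 0, with no value above 0.12 FPKM. FL5, highest for every phagocyte member, was the lowest FL rat for this sum. These values are low, and the part that neutrophils had in the rise of the oxidase genes was not tested. The number called was 1 without CL5, CL6, CL7, FL2 or FL5 in turn, and 0 without FL12. It was also 1 with median scaling, a pseudocount of 1, no filter or the filter at 1 FPKM, 2 with a pseudocount of 0.01 or with limma without trend, and 0 with quantile normalization, and the limma adjusted p of S100a8 was 0.035 with all rats, 0.116 without FL12 and 0.0255 to 0.133 over the alternatives.

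Among the other cell types, 1 of 7 tested lymphocyte markers (Cd2) was called higher, beside 9.29% of all genes. The call of Cd2 was lost with a pseudocount of 1 (log2 fold change 0.52), with median scaling, with quantile normalization, and without CL5, CL6 or FL5 (for the left-out rats, limma adjusted p = 0.0694, 0.0664 and 0.0763, against 0.0233 with all rats and 0.0225 to 0.198 over the alternatives). Its log2 fold change was 1.39 with all rats and 1.18, 1.38 and 1.38 without CL5, CL6 and FL5. It was 1.21 with median scaling and 0.76 with quantile normalization. The 10 lymphocyte markers summed to 2.14, 1.85 and 2.75 FPKM in CL5, CL6 and CL7 against 4.85, 6.51 and 2.75 in FL2, FL5 and FL12, with Cd8a the most abundant in CL5 and FL5 but not in CL6, CL7 or FL12. Of 9 tested stellate cell or myofibroblast markers, 4 were called higher, Col1a1, Col3a1, Des and Pdgfrb. Their list summed to 88.3, 94.2 and 85.4 FPKM in CL5, CL6 and CL7 against 206, 546 and 494 in FL2, FL5 and FL12, mostly from the collagen gene Col3a1. Compared with every CL rat, Nox4 was thus lower and this sum higher in every FL rat. Within FL, however, both were highest in FL5. Of the 9 tested markers 8 had a positive log2 fold change, and Lrat had a negative 1 (-0.07, overlapping groups, not called). Acta2, the smooth muscle actin of myofibroblasts, was at 3.85, 2.62 and 2.68 FPKM in CL5, CL6 and CL7 against 3.87, 17.32 and 9.59 in FL2, FL5 and FL12, and among the alternatives it was called only without FL2 (limma adjusted p = 0.00662, against 0.0609 with all rats and 0.00662 to 0.175 over the alternatives).

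Hepatocyte markers, which define the tissue, had by far the highest sum of the marker lists. It was 53583, 51089 and 51745 FPKM in CL5, CL6 and CL7 against 45916, 46047 and 44943 in FL2, FL5 and FL12, with Alb, the serum albumin gene, the most abundant. In unscaled FPKM the sum was lower in every FL rat than in any CL rat. The log2 fold change of Alb, which leads the sum, was -0.38 but 0.49 with quantile normalization, so no direction is given for the sum. Alb itself was at 33392, 31431 and 31992 FPKM in CL5, CL6 and CL7 against 24149, 25052 and 25209 in FL2, FL5 and FL12, and it was 1 of 2 hepatocyte markers with all FL rats below all CL rats, while in 2 others all FL rats were above. The log2 fold change was positive in 6 of the 8. By limma 0 of the 8 hepatocyte markers and 0 of the 7 endothelial markers in the table (Pecam1 was not matched) were called in either direction. At an unadjusted p under 0.05, 1 hepatocyte marker and 3 endothelial markers were higher in FL and 0 were lower. These counts depended on the limma setting. Without the trend in the prior, 2 hepatocyte markers were lower and 2 higher at that p, 2 endothelial markers were higher and 0 lower, and 0 of either list were called, while of all genes 30.5% were higher and 3.65% lower at that p. For Alb (log2 fold change -0.38) the SE was 0.98 and the adjusted p 0.804, and without the trend 0.12 and 0.0789. The endothelial markers summed to 91.4, 90.5 and 81.6 FPKM in CL5, CL6 and CL7 against 110, 92.4 and 105 in FL2, FL5 and FL12, with the receptor gene Kdr the most abundant in the CL rats and FL2 but not in FL5 or FL12. Of 6 cholangiocyte markers 1 was called higher (Spp1, osteopontin, which macrophages also make), beside 9.29% of all genes. Without CL7, FL5 or FL12, Spp1 was not called (limma adjusted p = 0.0537, 0.0537 and 0.0516, against 0.0119 with all rats and 0.00625 to 0.0537 over the alternatives). Its log2 fold change was then 4.37, 3.86 and 4.34, against 4.53 with all rats. Without FL2, 2 of the 6 were called. The cholangiocyte list, led by Spp1 in the FL rats only, summed to 5.75, 10.6 and 6.32 FPKM in CL5, CL6 and CL7 against 12.7, 68.7 and 42.4 in FL2, FL5 and FL12.

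A list of 14 other oxidase subunits, assembly and maturation genes was read for the rest of the family. Of these 11 were in the table (Nox3, Noxa1 and Cybc1 were not matched), 6 were tested, and 1 was called higher, Sh3pxd2b. Of all genes 9.29% were called higher. Nox1, Duox1, Duox2, Duoxa2 and Noxo1 were under the filter, with no value above 0.11 FPKM. These genes were therefore near 0 in both groups. Sh3pxd2b, an adaptor related to p47phox that organizes podosomes, was at 0.11, 0.34 and 0.60 FPKM in CL5, CL6 and CL7 against 2.15, 2.14 and 2.76 in FL2, FL5 and FL12. Sh3pxd2b had a log2 fold change of 2.60 (SE 0.42, limma adjusted p = 0.00729), and 1.32 with a pseudocount of 1. Poldip2, which binds the Cyba protein and has been described as a partner of NOX4, was the most abundant of the list at 56.1 ± 6.26 FPKM in CL and 57.5 ± 3.99 in FL (SD, n = 3 each) and was not called (log2 fold change 0.04, limma adjusted p = 0.844). Under median scaling its log2 fold change was -0.19, so no direction is given for it. The median log2 fold change of the 6 tested genes was 0.14, beside 0.29 for all genes. The list was called lower in 0 genes by limma, also at an unadjusted p under 0.05.

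The 16 kinases, guanine nucleotide exchange factors and other partners of phagocyte oxidase activation, not all of which switch the oxidase on, were all tested. By limma 9 were called higher and 0 lower, beside 9.29% and 0.935% of all genes, and in 13 every FL rat was above every CL rat, beside 35.7% of all genes. The median log2 fold change was 1.07, beside 0.29 for all genes. The 9 were Prkcb and Prkcd, kinases that phosphorylate p47phox, Vav1, Prex1 and Dock2, exchange factors that load Rac with GTP, Arhgdib, which holds Rac in the cytosol of blood cells, Hvcn1, a proton channel that balances the charge the oxidase moves, Pik3cd, a lipid kinase of leukocytes, and Pla2g4a, which releases arachidonic acid. Hvcn1 was at 0.34, 0.67 and 0.36 FPKM in CL5, CL6 and CL7 against 1.68, 2.04 and 2.10 in FL2, FL5 and FL12 (with limma, a log2 fold change of 1.92, SE 0.27, adjusted p = 0.00519, and 1.02 as log2 fold change with a pseudocount of 1). Its change was the largest of the list with a pseudocount of 0.1, but with a pseudocount of 1 those of Arhgdib (1.29), Pik3cd (1.04) and Prex1 (1.03) were larger. Arhgdib was at 6.01, 5.65 and 4.39 FPKM in CL5, CL6 and CL7 against 14.35, 15.65 and 13.49 in FL2, FL5 and FL12 (with limma, a log2 fold change of 1.43, SE 0.15, adjusted p = 0.00218). For these genes the FL rats were close together and clear of the CL rats. Arhgdia, the form found in most cells and the most abundant of the list, was at 29.6 ± 3.25 FPKM in CL and 43.9 ± 3.38 in FL (SD, n = 3 each), with an adjusted p of 0.0209 by limma but a log2 fold change of 0.57, under the 2-fold limit. With quantile normalization 3 of the 16 were called and with a pseudocount of 1, 5 were called, and with no limit on the fold change 12, Arhgdia included. Prkcb (log2 fold change 0.81) and Prkcd (0.90) were under the limit with median scaling, with a pseudocount of 1 (0.74 and 0.93) and with quantile normalization (0.60 and 0.80). Without FL5, Prkcb (log2 fold change 0.84) and Prkcd (0.97) were not called, and Prkcb was also lost without CL5 and without CL6 (log2 fold change 0.99 and 0.97). At an unadjusted p under 0.05, 13 of the 16 were higher and 0 lower, beside 31.5% and 4.04% of all genes.

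**Figure D3:**
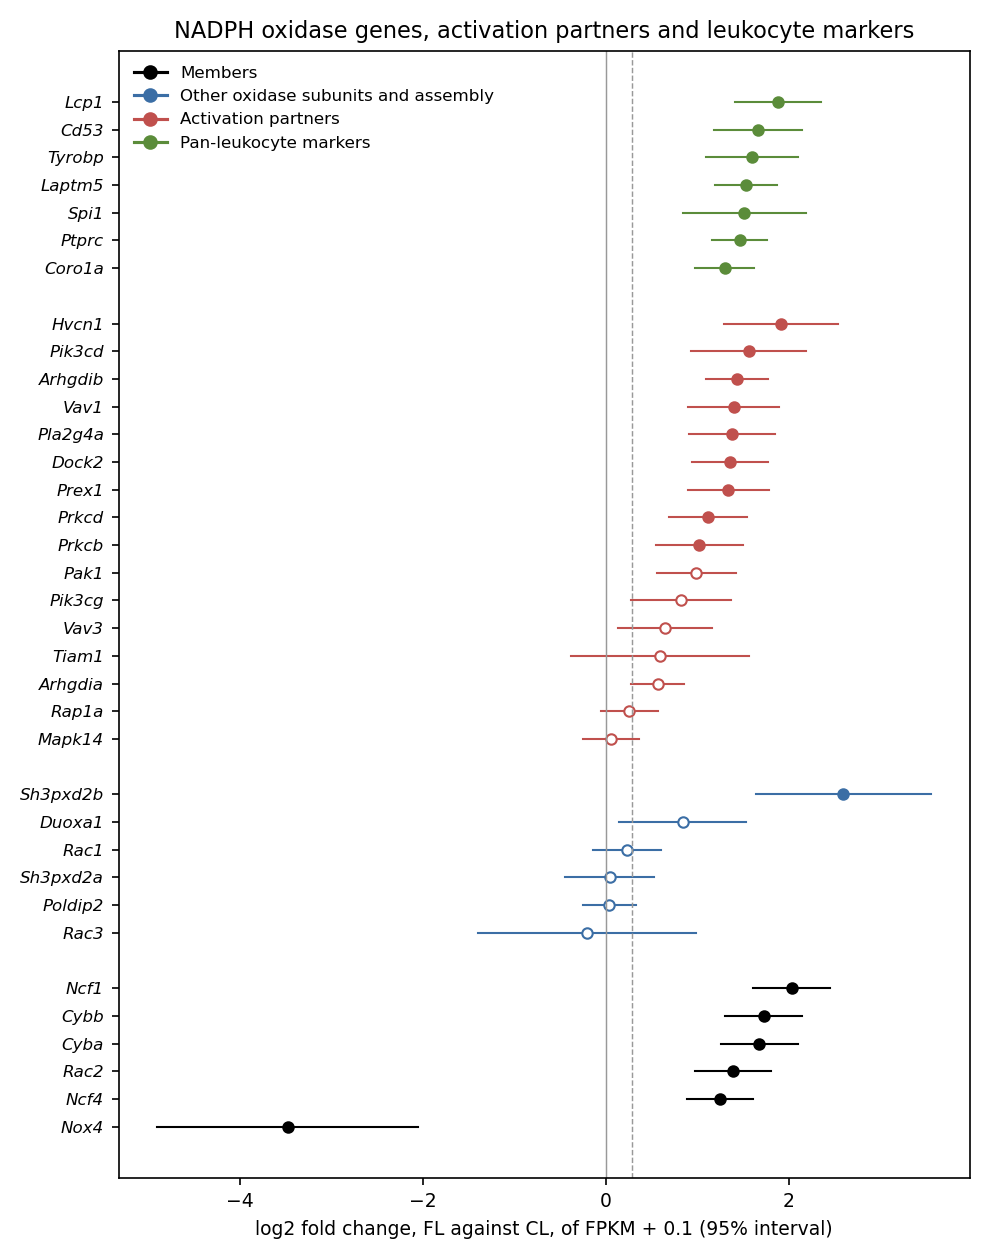
Log2 fold change of FPKM + 0.1, FL against CL (horizontal axis), with 95% intervals, for the members in black, other oxidase genes in blue, activation partners in red and pan-leukocyte markers in green. Filled points were called, open points were not, and the dashed line marks the median of all genes at 0.29. Nox4 at -3.48 lies on the other side of 0 from the other members.

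Of 11 enzymes that act on superoxide and hydrogen peroxide, the products of the oxidases, 10 were tested. By limma 1 was called higher, beside 9.29% of all genes, and this was Gpx3, a secreted glutathione peroxidase. Gpx3 was at 3.82, 6.76 and 5.56 FPKM in CL5, CL6 and CL7 against 16.62, 43.10 and 37.94 in FL2, FL5 and FL12 (with limma, a log2 fold change of 2.50, SE 0.36, adjusted p = 0.00545). All FL rats were above all CL rats, with FL2 the lowest of them. Mpo was not tested. By limma 0 were called lower, and at an unadjusted p under 0.05, 4 of the 10 were lower and 2 higher, beside 4.04% and 31.5% of all genes. Sod3, the extracellular superoxide dismutase, was at 9.91 ± 1.03 FPKM in CL and 5.55 ± 0.682 in FL (SD, n = 3 each), with an adjusted p of 0.00917 but a log2 fold change of -0.83, under the 2-fold limit. It passed the limit with median scaling (-1.05) and quantile normalization (-1.09). Catalase (Cat), the most abundant of the list, was at 883, 964 and 889 FPKM in CL5, CL6 and CL7 against 475, 716 and 492 in FL2, FL5 and FL12, and was not called (log2 fold change -0.73, limma adjusted p = 0.0652). The 11 enzymes summed to 1515, 1631 and 1509 FPKM in CL5, CL6 and CL7 against 939, 1308 and 1018 in FL2, FL5 and FL12. In unscaled FPKM this sum, led by Cat, was lower in each FL rat than in each CL rat. FL5 was the nearest to CL, as it was for Nox4. The sum does not stand for each enzyme. Of the 11, every FL rat was below every CL rat in 4 and above in 2, beside 4.78% and 35.7% of all genes tested. The median log2 fold change was -0.13, beside 0.29 for all genes.

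TGF-beta signalling, a known inducer of Nox4 in several cell types, was read from 9 genes in 10 rows. By limma 2 were called higher, Tgfb1 and Tgfb3, which are 2 of the 3 ligands, and 0 lower. Of all genes 9.29% were called higher and 0.935% lower. At an unadjusted p under 0.05, 6 of the 10 rows were higher and 0 lower, beside 31.5% and 4.04% of all genes. Tgfb1 was at 3.37, 4.01 and 3.78 FPKM in CL5, CL6 and CL7 against 6.72, 10.80 and 8.54 in FL2, FL5 and FL12 (with limma, a log2 fold change of 1.18, SE 0.18, adjusted p = 0.00686). It fell under the 2-fold limit with median scaling (0.96) and quantile normalization (0.89). Tgfb3 was at 0.91, 1.18 and 0.80 FPKM in CL5, CL6 and CL7 against 4.25, 8.10 and 10.85 in FL2, FL5 and FL12 (with limma, a log2 fold change of 2.80, SE 0.33, adjusted p = 0.00339). These 2 ligands were thus higher in every FL rat, in which Nox4 was lower. The median log2 fold change of the 10 rows was 0.46, beside 0.29 for all genes.

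Genes with the pattern most like that of Nox4 and of Cybb over the 6 rats were found by the root mean square difference of centred log2(FPKM + 0.1), over 10529 genes that averaged 1 FPKM or more. Nearest to Nox4 were RGD1565421 (0.40), Car3 (0.45), AABR07034260.1 (0.49), Lrtm2 (0.52), AABR07025900.1 (0.58), Ctnna3 (0.66), AABR07072511.1 (0.68) and ste2 (0.69). Car3, carbonic anhydrase 3, was at 681, 1124 and 866 FPKM in CL5, CL6 and CL7 against 44.0, 253 and 28.5 in FL2, FL5 and FL12. Nearest to Cybb were Tlr8 (0.11), Fes (0.12), C3ar1 (0.13), Lgals3bp (0.14), Nckap1l (0.15), Hk2 (0.15), Akr1b8 (0.16) and Cd68 (0.16). Tlr8, a receptor for RNA in endosomes of myeloid cells, was between 0.97 and 1.25 FPKM in the CL rats and at 3.01 in FL2, 5.11 in FL5 and 3.27 in FL12. Among the members, Cyba was at a difference of 0.15 from Cybb, Rac2 and Ncf1 at 0.27, Ncf4 at 0.30 and Nox4 at 2.70. Genes under 1 FPKM in a group, such as C3ar1, Fes, Hk2 and Akr1b8 in CL, entered this comparison through the group in which they were high, as did 5 of the 8 nearest to Nox4, which averaged under 1 FPKM in FL.

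RefSeq promoter sequence on build GRCr8, from 250 bases before to 50 bases after the annotated start, was matched by symbol for 4 of the 6 members, Nox4, Cybb, Cyba and Ncf1. The catalytic pair is shown because its members moved in opposite directions. Nox4 lies at chr1:150313639-150313938 on the plus strand and Cybb at chrX:16065016-16065315 on the minus strand, each printed 5′ to 3′ in the direction of its gene. Capitals mark the word GAGGAA, searched on both strands, the purine-rich word of sites for PU.1, the myeloid factor that Spi1 encodes.
Nox4: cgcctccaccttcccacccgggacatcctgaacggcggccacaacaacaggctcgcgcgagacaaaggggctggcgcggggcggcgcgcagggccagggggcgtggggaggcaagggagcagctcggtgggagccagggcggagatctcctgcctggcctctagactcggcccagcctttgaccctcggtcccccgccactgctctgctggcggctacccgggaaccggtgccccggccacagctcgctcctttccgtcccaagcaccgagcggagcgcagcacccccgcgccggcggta
Cybb: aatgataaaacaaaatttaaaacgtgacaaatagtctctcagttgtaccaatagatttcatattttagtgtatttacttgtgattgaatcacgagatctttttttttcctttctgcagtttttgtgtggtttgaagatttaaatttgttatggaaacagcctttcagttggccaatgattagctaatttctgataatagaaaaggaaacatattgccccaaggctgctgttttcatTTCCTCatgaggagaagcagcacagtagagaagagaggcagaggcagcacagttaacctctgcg
The Cybb window held the word once on the other strand, read here as TTCCTC, beginning 14 bases before the start, and the windows of Nox4, Cyba and Ncf1 did not hold these letters. Of 33469 promoters of the same length, 27.6% held the word on either strand. The share of G and C was 73.0% in Nox4 and 35.7% in Cybb, against a median of 51.7% over all promoters, 61.0% in Cyba and 59.7% in Ncf1. At or above the value of Nox4 were 4.87% of the promoters, and at or under that of Cybb 5.64%. The catalytic genes thus differed in base composition to either side of Cyba and Ncf1. A match of letters is a description and says nothing of binding.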

How the data were processed

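Liver RNA of 6 rats, 3 in CL and 3 in FL, was analysed, with groups and rat numbers taken from the sample labels. The authors trimmed the reads, aligned them with TopHat2 allowing 4 mismatches, and deposited FPKM per gene from uniquely placed reads. The submitters' processing notes name the human build GRCh38, whereas the gene identifiers are those of rat, and the build was not settled here. The table also held 2 value columns with no sample in the labels, which were not used. Values have 2 decimals, and identical values between rats (0.99% to 2.87% of genes above 0 in both) gave no sign of a library deposited more than once.

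From these values log2(FPKM + 0.1) was compared with limma 3.58.1 in R 4.3.3 (trend, two-sided, Benjamini-Hochberg adjustment over 14864 genes that averaged 0.1 FPKM or more), after the fit had been tested on simulated data. Ratios, sums and likeness were computed with Python 3.11.15. Steps of low U6 values were whole within 0.15 of a step in 80.9% to 92.2% of values, from which relative depth was taken. Whole read counts were not recovered, so precision rests on the spread between rats. The members and the 4 gene lists and 8 marker lists were chosen with earlier results of these data known, and 1 listed gene was left out of its list and is not reported here. Named genes were the members, genes of these lists, and the 8 genes most like Nox4 and Cybb. Alternatives were other pseudocounts, filters, scalings and limma settings, no fold limit, and leaving out each rat.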

Additional observations from a re-analysis of the deposited data

How the results depend on the processing

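Nox4 was called lower in FL in all 15 alternatives, with log2 fold changes between -4.28 and -2.43, and 4 or 5 of the 5 phagocyte members were called higher in each, Ncf4 being lost with a pseudocount of 1 and with quantile normalization. The number of genes higher in FL, 1381, was 462 with a pseudocount of 1, 854 with a mean of at least 1 FPKM, 826 with median scaling, 453 with quantile normalization, 2518 with no limit on the fold change, and 682 to 1833 with 1 rat left out. The number lower, 139, was 72 with a pseudocount of 1, 231 with quantile normalization, 288 with no limit on the fold change, and 80 to 159 with 1 rat left out. Fewer genes were tested with the higher filter, and the cause of the other changes was not tested. Of 63 named genes besides Nox4, 53 were called. Over the alternatives that keep the fold limit, 29 of these were called in every one and 24 were lost in some, and 2 of the 10 not called were called in some. The log2 fold change turned in 3 genes that were not called. Poldip2 (0.04 with all rats) gave -0.19 with median scaling, -0.0025 with quantile normalization, and -0.026 to 0.13 with 1 rat left out. Clec4f (-0.017 with all rats) gave -0.28 to 0.39 with 1 rat left out, and Alb (-0.38) gave 0.49 with quantile normalization. No paired analysis was made, because rats had been divided between the groups at random and their numbers do not define pairs. With 3 rats per group and read numbers per library that the values do not give, values under about 1 FPKM, among them Nox4 in FL2 and FL12, carry a counting error that was not measured.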
